A study of Mus musculus with 2 samples.

Results

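The 9 genes described here are both nuclear estrogen receptors, Esr1 and Esr2, and 7 genes grouped with them as estrogen-induced: Greb1, Ltf, Lcn2, Sprr2f, Sprr2k, Calb1 and Agr2. They were chosen by symbol, from 18193 genes that have a probe set with a single gene symbol in the platform annotation, and with the difference between the genotypes already known, so every ratio below is a description and nothing is tested with it. All 9 were found, on 18 probe sets. The cells were uterine stromal cells, from Msx1Msx2-null mice, in which floxed Msx1 and Msx2 alleles were recombined by PRcre, a Cre driven by the progesterone receptor gene, and which therefore acts in the uterine cells that use that gene, and from floxed control mice without that ablation. All mice were on the C57BL/6 strain, were mated to fertile males, and their uteri were taken on day 4 of pregnancy, counting the day of the vaginal plug as day 1. The isolation, by dispase and pancreatin and then collagenase, was meant to remove the epithelium first. RNA was pooled within a genotype, from 5 mice by the treatment protocol and from 4 by the extraction protocol, and each pool was hybridized to 1 Affymetrix array. There is thus 1 value per probe set and genotype, with no replicate error, no interval and no p-value. A difference can come from the genotype, from the mice in a pool or from the hybridization, and these cannot be told apart.

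Estrogen acts in the uterus through the receptor encoded by Esr1, a ligand-activated transcription factor that is present in both epithelium and stroma. Before implantation, progesterone restrains the response of the luminal epithelium to estrogen, and stromal cells relay part of both hormone signals to the epithelium by secreted factors. Several secreted or cornified-envelope proteins of the epithelium, lactoferrin and the small proline-rich proteins among them, are standard readouts of estrogen action in the mouse uterus.

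The values are MAS5 signals, linear intensities that the authors had scaled to a common array mean. A floor was set at the median of the non-control probe sets of each array, 30.1 in the null array and 31.0 in the control array. A signal under it is treated as unmeasured, not as absent, and is raised to the floor for a ratio, which is then written as "at least". For each gene the probe set of highest mean log2 signal is used, called its main probe set, and a gene is called when it differs at least 2-fold. Signals of different probe sets depend on their probes, so levels are not compared between genes. The median of all probe sets was 30.2 in the null and 31.2 in the control array. Msx1 had 23.0 in null and 1581 in control cells, at least 52.6-fold lower, and Msx2 had 14.5 in null and 63.7 in control cells, at least 2.12-fold lower, and where these probe sets lie relative to the deleted segments is not known here. The 3'/5' signal ratio, an indicator of RNA integrity, was 1.28 in the null and 0.967 in the control array for Gapdh, and 2.33 in the null and 1.80 in the control array for Actb. Its part in the differences below was not tested.

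Of the 9 genes, Ltf, Lcn2, Sprr2f and Calb1 were more than 5-fold higher in null cells, Greb1 was at the 2-fold line, and Esr1 differed by 1.17-fold. Sprr2k and Agr2 passed the floor in null cells alone, and Esr2 was under it in both arrays. The count of called genes was therefore 4 higher and 0 lower among the 8 above the floor in at least 1 array. Over all 11833 genes above the floor, 188 (1.59%) were called higher and 213 (1.80%) lower. The genes were selected on this contrast, so nothing is read from that difference in share.

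**Figure D1:**
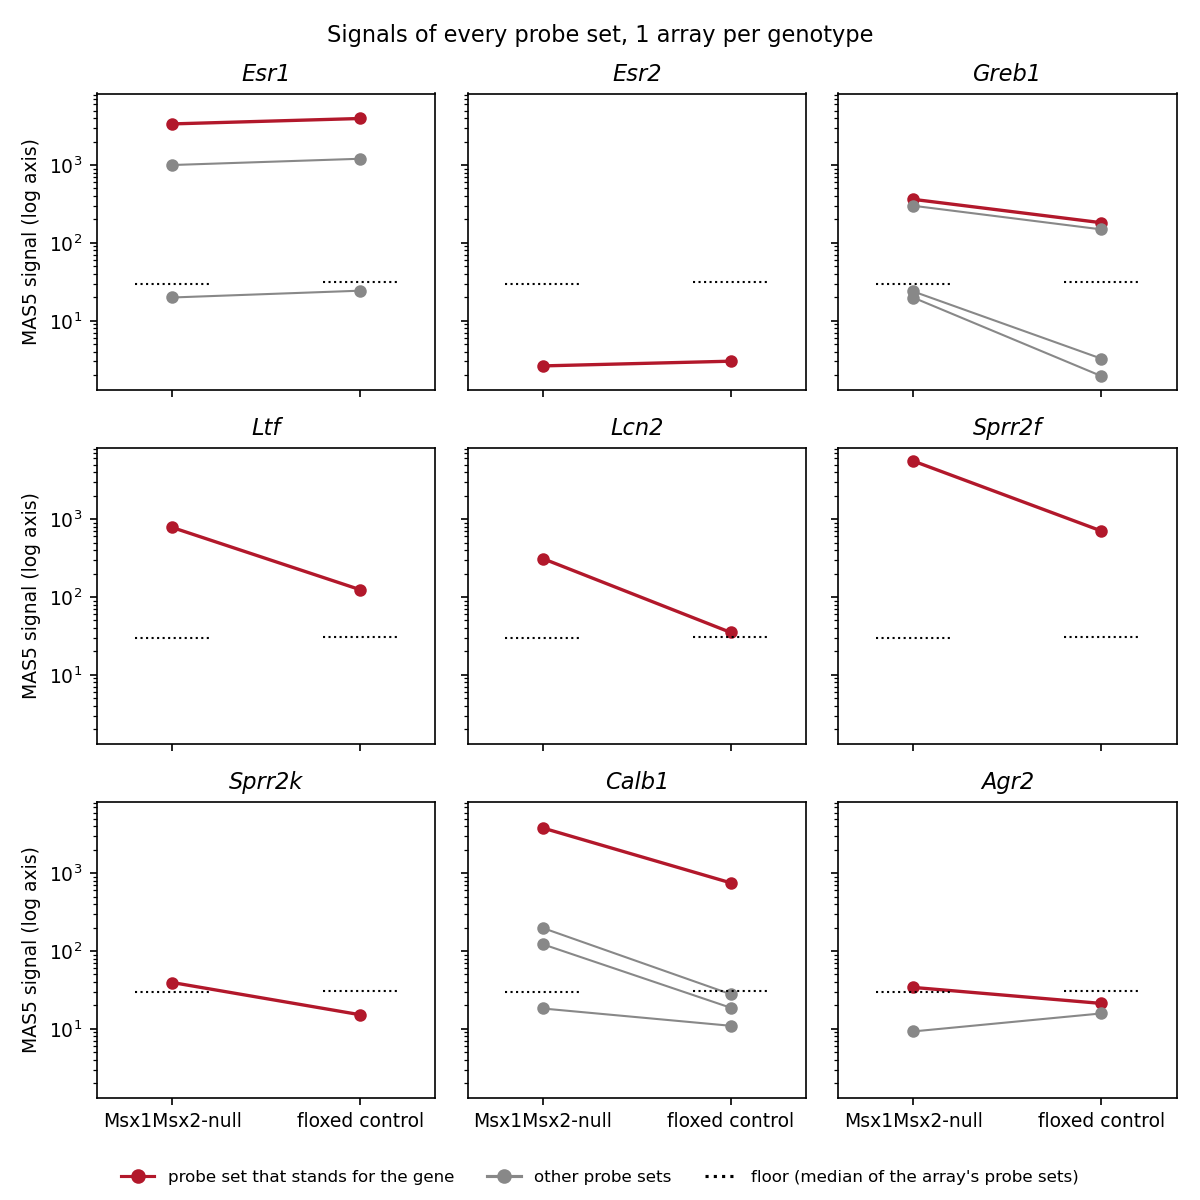
MAS5 signal on a log axis for each of the 18 probe sets of the 9 genes, in the Msx1Msx2-null array (left) and the floxed control array (right); red marks the probe set that stands for the gene, grey the others, and dotted lines the floor of each array. The lines of Ltf, Lcn2, Sprr2f and Calb1 slope down towards the control, those of Esr1 are nearly flat, and Esr2 lies under the floor in both arrays.

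The receptor Esr1 was well above the floor in both genotypes and close in both. Its main probe set had a signal of 3371 in null and 3956 in control cells, a log2 ratio of -0.23. The second had 999.7 in null and 1203 in control cells, a log2 ratio of -0.27. The remaining probe set was under the floor in both arrays, with 19.9 in null and 24.3 in control cells. Both measured probe sets were thus slightly lower in the null array, on the same pools of RNA. For scale, the log2 ratios of a gene's brightest probe sets differed between each other with an SD of 0.27 for a single probe set, over 4690 genes that had such a pair above both floors; that SD covers probe noise and not the spread between mice, pools or hybridizations. Both Esr1 ratios lie within 1 such SD of 0. Esr2, the other nuclear estrogen receptor, had 2.63 in null and 3.03 in control cells on its 1 probe set, so no ratio is given.

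The partners of the receptors that could be measured were close in both arrays as well, while the enzymes that make estrogen were not measured. Of 19 genes listed for estrogen synthesis, inactivation and receptor function, 15 had a probe set with a single symbol and 9 were above the floor. Among these 9 genes 0 were called in either direction, against 1.59% higher and 1.80% lower over all genes above the floor. The log2 ratios of the 9 genes ran from -0.44 to 0.32 with a median of -0.041, against 0.017 over all genes used. The lowest was the orphan receptor gene Esrra, with 74.4 in null and 101 in control cells. The highest was Phb2, a prohibitin that represses the estrogen receptor, with 1906 in null and 1523 in control cells. The coactivator genes Ncoa1, Ncoa2 and Ncoa3 had log2 ratios of 0.13, -0.041 and -0.13, and the corepressor gene Nrip1, itself an estrogen target in many cells, had 0.15. The membrane estrogen receptor gene Gper1 was just over the floor in the null array, with 31.6 in null and 22.7 in control cells. Under the floor in both were the estradiol-forming and estradiol-oxidizing dehydrogenase genes Hsd17b1 and Hsd17b2, the estrogen sulfotransferase gene Sult1e1, the pioneer factor gene Foxa1, and Esrrb and Esrrg.

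Greb1 encodes a cofactor of the estrogen receptor and is one of its early targets in breast and uterine cells. Its main probe set had 362 in null and 182 in control cells, 1.99-fold higher. The second had 299.7 in null and 149 in control cells, 2.01-fold higher. The 2-fold line therefore runs between the probe sets of Greb1, and whether the gene counts as called depends on which is used. The remaining pair was under the floor in both arrays, with 23.8 and 19.8 in null cells and 3.26 and 1.95 in control cells. Only the probe sets above the floor give a direction, and both had the higher signal in the null array.

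Ltf and Lcn2 encode secreted iron-related defence proteins of the epithelium: lactoferrin binds iron itself, and lipocalin 2 binds bacterial iron carriers. Each had 1 probe set. Ltf had 780.3 in null and 124 in control cells, 6.30-fold higher, and both signals were at least 3 times the floor. Lcn2 had 311 in null and 34.98 in control cells, 8.90-fold higher. The control signal of Lcn2 lay just above the floor of 31.0, so its ratio rests on a dim value, and with the floor at the 65th percentile (a signal of 81.8 in the control array) the log2 ratio became 1.93 instead of 3.15.

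Both genes are also stored in neutrophil granules, so markers of that cell were set beside them. Of 12 neutrophil markers, 10 had a probe set with a single symbol and 4 were above the floor, all 4 with the lower signal in null cells. S100a8 and S100a9, subunits of calprotectin, had 69.2 and 65.2 in null cells and 88.5 and 94.7 in control cells. The receptor gene Csf3r had 30.7 in null and 57.9 in control cells, and the gelatinase gene Mmp9 had 22.1 in null and 39.1 in control cells. The granule genes Camp, Ngp, Mpo, Elane and Mmp8 and the chemokine receptor gene Cxcr2 were under both floors. The summed signal of the 10 markers was 229 in the null and 319 in the control array.

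Sprr2f and Sprr2k belong to a family of small proline-rich proteins that are cross-linked into the envelope of barrier epithelia, and several of its members are induced by estrogen in the uterus. Sprr2f had 5565 in null and 704 in control cells, 7.90-fold higher on its 1 probe set. Sprr2k had 39.4 in null and 15.2 in control cells, at least 1.27-fold higher, since the control signal was under the floor. The deposited signals of Sprr2k alone would give a log2 ratio of 1.38. Both lie in the Sprr2 cluster on chromosome 3, with 5 annotated genes between them in the GRCm38.p6 RefSeq table. The other family genes with a probe set of their own were under both floors. Sprr2d had 28.5 in null and 2.42 in control cells, and Sprr2h had 9.38 in null and 0.875 in control cells. Sprr2i had 3.44 in null and 0.666 in control cells, and the pseudogene Sprr2j-ps had 1.168 in null and 1.202 in control cells. Within the family, then, Sprr2f was the 1 gene measured in both genotypes. The family's transcripts are alike, and a bright relative can add signal to a probe set, so the dim values may include signal from Sprr2f, which was not tested.

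The bases just upstream of 4 of these genes are shown because Ltf, Lcn2, Sprr2f and Sprr2k are secreted or envelope genes with the higher signal in null cells. For Sprr2k that difference is only a bound, since its control signal was under the floor. They are the 250 bases before the annotated start, 5′ to 3′ on the gene's strand, from RefSeq on GRCm38.p6. Capitals mark the core of the estrogen receptor's binding motif on either strand (GGTCA or TGACC) and, in the last 40 bases only, the TATA box letters TATAAA.
Ltf, chr9:111019042-111019291, plus strand: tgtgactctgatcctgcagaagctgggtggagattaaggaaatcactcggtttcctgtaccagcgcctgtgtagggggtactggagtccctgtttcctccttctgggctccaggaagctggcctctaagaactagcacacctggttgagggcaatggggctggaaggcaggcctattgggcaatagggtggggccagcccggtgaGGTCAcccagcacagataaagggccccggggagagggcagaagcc
Lcn2, chr2:32387740-32387989, minus strand: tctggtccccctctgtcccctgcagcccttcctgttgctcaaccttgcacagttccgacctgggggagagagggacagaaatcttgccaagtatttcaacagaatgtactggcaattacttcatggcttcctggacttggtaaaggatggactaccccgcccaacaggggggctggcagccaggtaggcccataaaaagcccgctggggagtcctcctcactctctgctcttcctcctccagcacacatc
Sprr2f, chr3:92364937-92365186, plus strand: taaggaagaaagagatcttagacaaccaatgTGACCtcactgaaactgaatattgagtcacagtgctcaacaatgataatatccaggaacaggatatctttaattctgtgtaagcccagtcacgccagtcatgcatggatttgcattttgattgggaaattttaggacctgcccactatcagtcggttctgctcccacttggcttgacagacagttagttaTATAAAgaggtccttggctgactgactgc
Sprr2k, chr3:92432332-92432581, plus strand: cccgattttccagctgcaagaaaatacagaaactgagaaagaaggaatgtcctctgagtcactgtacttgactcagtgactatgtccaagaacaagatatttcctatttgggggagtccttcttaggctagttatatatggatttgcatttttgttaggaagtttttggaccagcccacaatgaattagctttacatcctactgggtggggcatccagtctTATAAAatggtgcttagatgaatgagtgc

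Ltf had GGTCA beginning at position -45 from the start, and Sprr2f had TGACC at position -219. Lcn2 and Sprr2k had neither in this window. TATAAA began at position -29 in both Sprr2f and Sprr2k, whose upstream sequences were identical in 156 of 257 aligned columns (60.7%). Upstream windows were at hand for 8 of the 9 genes, all but Calb1, which was called higher. The 8 genes had 10 windows in all, since Esr1 and Greb1 have a pair of annotated starts each. The motif core was in 5 of these 10 windows (50%), namely Ltf, Sprr2f, Esr2 and both of Greb1, against 11577 of 32851 windows of all genes (35.2%). GGTCA followed 3 bases later by TGACC, the full palindrome, was in 0 of the 10 and in 21 of all windows (0.0639%). In the Sprr2 family the motif core was in 1 of 10 windows (10%), that of Sprr2f. TATAAA in the last 40 bases was in 2 of the 10, in 7 of 10 windows of the Sprr2 family and in 2.31% of all windows. A match of 5 letters is a description of the sequence and not a binding site, and elements farther upstream were not searched.

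Calb1 encodes calbindin-D28k, a calcium-binding protein of the uterine luminal epithelium. Its main probe set had 3804 in null and 750.2 in control cells, 5.07-fold higher. A second probe set had 198 in null and 27.9 in control cells, at least 6.37-fold higher. Another had 122 in null and 18.7 in control cells, at least 3.94-fold higher, and the fourth, with 18.3 in null and 11.0 in control cells, was under the floor in both. The higher signal in null cells was thus seen on each of the 3 probe sets above the floor in at least 1 array, which read the same pools. Agr2, a protein disulfide isomerase of mucus-secreting epithelia, was near the floor. Its main probe set had 34.1 in null and 21.2 in control cells, at least 1.10-fold higher, and the other, under the floor in both, had 9.28 in null and 15.8 in control cells, the opposite order. No direction is given for Agr2.

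Genes under the floor in 1 array have only a bound, so ranks were taken among the 11137 genes above both floors. There Lcn2 had the 2nd, Sprr2f the 3rd, Ltf the 9th and Calb1 the 13th highest log2 ratio, and Greb1 ranked 147; the ratio and so the rank of Lcn2 rest on its dim control signal. The ratios of dim genes spread more widely than those of bright genes, so these genes were also split into 10 bins of mean signal and each gene was placed within its own bin. Lcn2, Sprr2f and Ltf had the highest ratio of their bins, of 1113 or 1114 genes each, Calb1 ranked 4 and Greb1 ranked 12. Esr1 ranked 938 of 1114 in the brightest bin, where the central 95% of log2 ratios ran from -0.67 to 0.63, while in the bin of Lcn2 they ran from -1.09 to 0.95. These ranks describe how far the values lie from other genes on the same 2 arrays. With 2 arrays no likeness of pattern between genes can be measured.

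**Figure D2:**
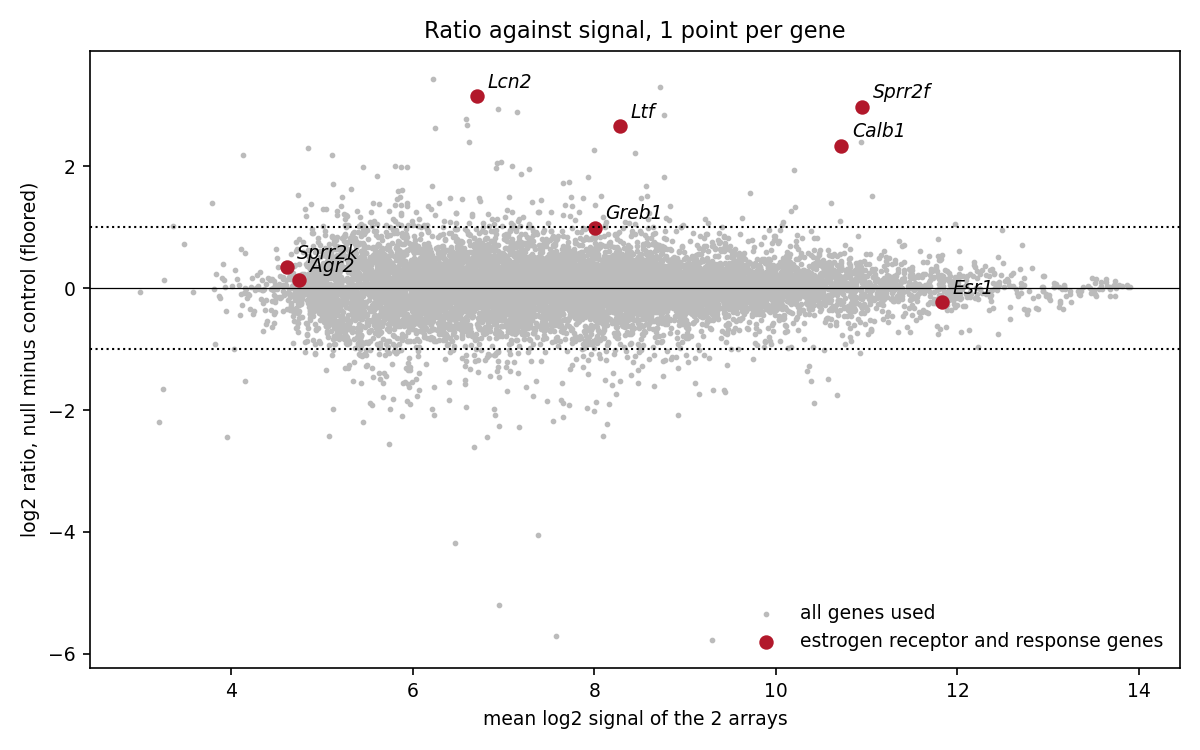
Log2 ratio (null minus control, floored) against the mean log2 signal of both arrays, 1 point per gene for all 11833 genes above the floor (grey) with 8 of the 9 genes in red; dotted lines mark 2-fold. Lcn2, Sprr2f, Ltf and Calb1 lie above a log2 ratio of 2, Greb1 lies on the 2-fold line, and Esr1 lies at -0.23 among the bright genes.

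Other genes known to respond to estrogen in the uterus went in both directions. Of 28 listed, 26 had a probe set with a single symbol and 22 were above the floor. Among these 22, 4 were called higher and 2 lower, against 1.59% and 1.80% of all genes above the floor. Of the 20 above both floors, 10 had positive and 10 negative log2 ratios, with a median of 0.098, against 0.017 over all genes used. Muc4 and Cftr were above the floor in null cells alone, so their floored ratios carry no measured size, and with them the median was 0.10 over the 22. The list was drawn up with results of these arrays known, so its counts are no independent evidence of a direction.

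Those called higher were of different kinds. Ramp3, a partner protein of the adrenomedullin receptor, had 1168 in null and 163 in control cells, 7.15-fold higher. Ovgp1, the estrogen-dependent oviductal glycoprotein, had 2303 in null and 602 in control cells, 3.82-fold higher. Inhbb, an inhibin and activin subunit, had 366 in null and 111 in control cells, 3.30-fold higher, on its main probe set. Its other probe set was near the floor, with 34.4 in null and 29.5 in control cells, at least 1.11-fold higher. The proliferation marker gene Mki67 had 1540 in null and 746 in control cells, 2.06-fold higher. Without Mki67 and the replication gene Mcm2 the median of the genes above both floors was -0.10. Both removed genes had positive log2 ratios, 1.04 and 0.76, so leaving them out can only lower the median. No genes with negative ratios were left out to match, and no direction is read from this value.

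Those called lower were Aqp5 and Lif. Aqp5, a water channel of the uterine glands, had 59.9 in null and 236 in control cells, 3.93-fold lower. Lif, the cytokine that glands release under nidatory estrogen, had 139 in null and 332 in control cells, 2.39-fold lower, on its main probe set. The other Lif probe set, under the floor in both arrays, had 21.8 in null and 2.73 in control cells, the opposite order. Muc1, the cell-surface mucin of the lumen, had 140 in null and 167 in control cells, a log2 ratio of -0.25. That lies within 1 probe set SD (0.27) of 0, so no direction is given for Muc1. Igf1, a stromal growth factor induced by estrogen, had 6281 in null and 6657 in control cells. Pgr, whose product restrains the epithelial response and whose locus carries the Cre, had 2663 in null and 1891 in control cells, a log2 ratio of 0.49. The chloride channel gene Cftr had 30.8 in null and 6.37 in control cells, so near the floor that no bound can be given.

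Ltf, Lcn2, Sprr2f, Calb1 and Agr2 are chiefly epithelial genes, and the cells were labelled stromal, so markers of both were set beside them. In a pool of cells, fewer cells of a type and less RNA per cell cannot be told apart. All 14 stromal markers were above both floors and 0 were called, against 1.59% higher and 1.80% lower over all genes above the floor. The 14 markers had a median log2 ratio of 0.10 and a summed signal of 64989 in the null and 62943 in the control array. The largest ratios were 0.80 for Hoxa11, 0.63 for Hand2, 0.46 for Col1a1 and 0.41 for Hoxa10, genes of stromal patterning, progesterone response and matrix.

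Epithelial transcripts were present in both arrays. Of 18 epithelial markers, 17 had a probe set with a single symbol and 15 were above the floor in both. Among these 15, 2 were called higher and 1 lower, against 1.59% and 1.80% of all genes above the floor. The median log2 ratio of the 15 markers was -0.13. The summed signal of all 17, including Ovol2 and Wnt7a, which were under both floors, was 14590 in the null and 17793 in the control array. Bright probe sets weigh most in such a sum, and most of this difference comes from Krt18 and Cd24a. Cd24a had 3002 in null and 4678 in control cells. Of the 15 markers above the floor, 4 had positive and 11 negative log2 ratios. Most of the negative ratios lay within 1 probe set SD (0.27) of 0, so no direction is read from these signs. The adhesion gene Cdh1 had 978 in null and 1050 in control cells. Epcam had 939.8 in null and 986.6 in control cells on its main probe set. The other Epcam probe set had 174 in null and 126 in control cells, the opposite order. The largest ratios were those of Lpar3, the luminal lysophosphatidic acid receptor gene (2.37-fold higher, with 284 in null and 119.6 in control cells), Krt18 (2.09-fold lower, with 1350 in null and 2822 in control cells), Krt19 (2.05-fold higher, with 724 in null and 353 in control cells) and the claudin gene Cldn7, which had a log2 ratio of 0.91.

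Markers of the glands were lower in null cells. All 9 were above the floor in the control array and had the lower signal in the null array. Of these 9, 8 were called lower, against 1.80% of all genes above the floor. The list was chosen with earlier results of these data known, so its count is no independent evidence. The median log2 ratio of the 9 markers was -2.45. Their summed signal was 741 in the null and 9067 in the control array. Spink1 had 85.2 in null and 4657 in control cells, 54.6-fold lower. Ttr was at least 36.8-fold lower, Prss29 at least 18.2-fold lower and Wfdc3 16.5-fold lower. Lif is in this list as well as in the estrogen response list. Whether a different make-up of the epithelium in the pools contributes to the ratios of Ltf, Lcn2, Sprr2f and Calb1 was not tested.

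**Figure D3:**
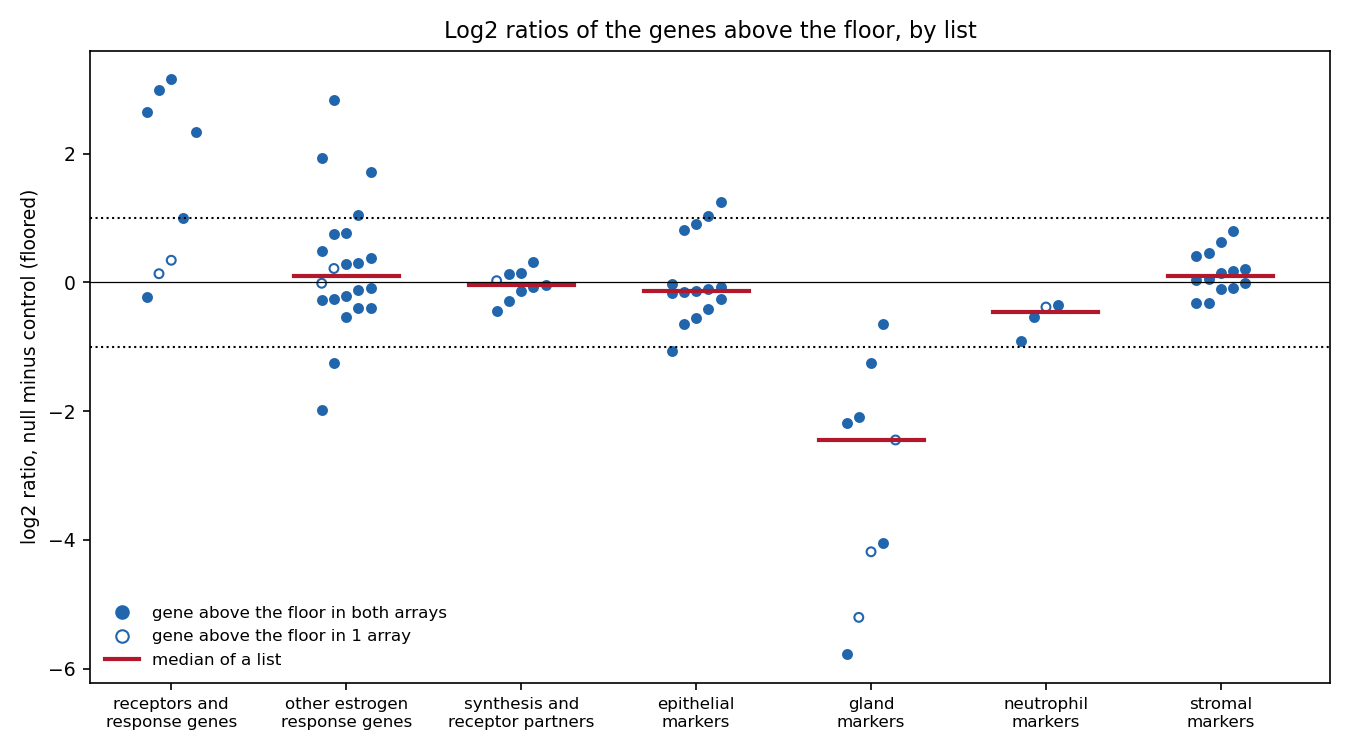
Log2 ratio (null minus control, floored) of every gene above the floor, in columns for the receptors and response genes, the other estrogen response genes, the synthesis and receptor partner genes, and the epithelial, gland, neutrophil and stromal markers; open circles are genes above the floor in 1 array, red lines are medians and dotted lines mark 2-fold. Gland markers lie below 0 with a median of -2.45, while epithelial and stromal markers have medians of -0.13 and 0.10 and the estrogen response genes lie on both sides of 0.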

How the data were processed

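Affymetrix 3' arrays of pooled RNA from uterine stromal cells were read, 1 array per genotype. Per the submitters' processing notes, the authors used MAS5 and Affymetrix Expression Console 1, and they deposited linear intensities with a signal for every probe set; MAS5 subtracts mismatch and background signal, which makes ratios of dim probe sets unstable. The mean without the highest and lowest 2% was 150.0 in each array. Detection calls and background settings are not given in the sources used here. Of 45101 probe sets, 64 were Affymetrix controls, 34945 had 1 gene symbol in the platform annotation, 932 had several and 9160 had none; only those with 1 were used for genes. Signals were put on the log2 scale without rescaling, with the floor and the 2-fold rule described above; of 18193 genes, 6360 were under both floors. Number of arrays limits the precision. The steps were run on a copy of the control array in which some genes of bright signal were multiplied by known factors. No noise was added, so that run says little about dim genes or about the spread between arrays. Upstream sequences came from the RefSeq table on GRCm38.p6; identity is from a global alignment (Biopython 1.88). Python 3.11.15, numpy 2.4.6 and pandas 2.3.3 were used. The genes and lists were chosen with earlier results of these data known. Named genes are all 9 genes and Sprr2 genes, every called gene of the estrogen lists, the 4 largest ratios of each marker list, Msx1, Msx2 and Pgr. Muc1, Igf1, Cftr, Epcam and Cdh1, and the genes named from the synthesis and partner list, were named after their values were seen. C3, Cyr61 and other listed genes without such a probe set were not analysed here. Alternatives changed the floor, the probe set that stands for a gene, the scaling and the offset.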

Additional observations from a re-analysis of the deposited data

Results flagged for a closer look

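Some probe sets annotated to several Sprr2 genes at once were outside the comparison, since no single gene can be named from them, and 2 of these 3 had a signal above the floor in the null array and under it in the control array. The first had 85.8 in null and 11.8 in control cells, at least 2.76-fold higher. Another had 67.3 in null and 3.17 in control cells, at least 2.17-fold higher. The last was under the floor in both, with 2.85 in null and 5.48 in control cells. How much of these signals comes from Sprr2f transcripts was not tested.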

How the results depend on the processing

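Lcn2, Sprr2f, Ltf and Calb1 were past 2-fold higher under each of 8 alternatives, and the count of called genes was 4 or 5 of those above the floor, with 0 lower. Greb1 had log2 ratios from 0.94 with an offset of 16 to 1.04 with median centring. Sprr2k had 1.38 and Agr2 0.68 with no floor and with the floor at the 35th percentile, and 0.83 and 0.43 with the offset; neither was above a floor at the 65th percentile. Lcn2 had 1.93 with the floor at the 65th percentile and 2.68 with the offset. Over all genes, 1797 were called higher and 1772 lower with no floor, 309 and 340 with the floor at the 35th percentile, and 97 and 123 at the 65th. The estrogen response median was 0.28 with no floor and with either other floor, 0.17 with the median over probe sets, 0.21 with the offset and -0.084 without _x_at and _s_at probe sets, so its sign is not settled. The gland median was -4.05 with no floor, -3.68 and -2.18 with the floor at the 35th and 65th percentile and -3.36 with the offset. The neutrophil median was -0.18 over 2 genes at the 65th percentile and -0.22 with the offset, and that of the synthesis and partner list was 0.11 at the 35th. The floors act through the dim genes they admit or raise. No paired analysis was possible because each genotype had 1 array, and no array could be left out.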
